A study of Mus musculus with 4 samples.

Results

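The levels of 10 forkhead transcription factor genes, Foxc1, Foxc2, Foxd1, Foxd2, Foxd3, Foxf1, Foxf2, Foxl1, Foxl2 and Foxe1, were read from a table of 33708 genes measured by RNA-seq in the mouse frontonasal prominence (FNP), the embryonic tissue that forms the nose and upper face. The genes were chosen by name, as forkhead genes known from facial mesenchyme and from neural crest, and each of the 10 has 1 row in the table. The study sequenced 4 embryos of the FVB/NJ strain at E10.5, all with 29 somites: 2 were Smchd1+/+ (WT) and 2 were Smchd1 MommeD43/MommeD43 (MD43), with MommeD43 carried through the germline in every cell. MommeD43 is a chemically induced missense allele of Smchd1, whose product helps to silence genes in chromatin. By the labels, WT had 1 female and 1 male and MD43 had 2 males, and the second embryo of each genotype shared a mother. Another record of the study gives the WT male as female, in which case sex and genotype cannot be told apart. The comparison of WT with MD43 addresses which transcripts differ in this tissue when SMCHD1 carries the missense change.

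Forkhead proteins bind DNA through a domain of about the same fold in the whole family, the winged helix, whose recognition helix lies in the major groove. In the face, neural crest cells that leave the dorsal neural tube build most of the mesenchyme, and forkhead genes are switched on there in response to signals from the overlying epithelium, Hedgehog among them. Foxd3 marks crest cells before and as they migrate, Foxc1 and Foxc2 act in mesenchyme around the eye and in skull and vessel formation, Foxf1, Foxf2 and Foxl1 act in mesenchyme beside Hedgehog-producing epithelium, and Foxe1 is an epithelial gene of the oral roof and thyroid.

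The family resemblance is visible in the coding DNA of the recognition helix. A stretch of 42 bases around it is printed for each gene because it shows what the 10 genes have in common in the part that touches DNA, with the 26 bases that are identical in all 10 in capitals. The sequences are the coding strand of the GENCODE M21 transcripts, GRCm38, 5′ to 3′ and in reading frame.
Foxc1, chr13:31807568-31807609: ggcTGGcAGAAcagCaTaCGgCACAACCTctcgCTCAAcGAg
Foxc2, chr8:121116954-121116995: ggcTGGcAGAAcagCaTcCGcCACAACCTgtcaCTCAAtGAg
Foxd1, chr13:98355136-98355177: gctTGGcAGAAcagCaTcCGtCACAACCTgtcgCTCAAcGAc
Foxd2, minus strand, chr4:114908267-114908308: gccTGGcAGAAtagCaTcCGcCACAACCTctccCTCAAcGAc
Foxd3, chr4:99657144-99657185: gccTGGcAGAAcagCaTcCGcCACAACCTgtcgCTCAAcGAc
Foxf1, chr8:121084669-121084710: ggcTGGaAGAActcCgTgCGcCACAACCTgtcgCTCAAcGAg
Foxf2, chr13:31626506-31626547: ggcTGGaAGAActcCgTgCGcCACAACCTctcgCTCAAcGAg
Foxl1, chr8:121128235-121128276: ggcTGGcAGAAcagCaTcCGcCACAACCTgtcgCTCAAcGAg
Foxl2, chr9:98955937-98955978: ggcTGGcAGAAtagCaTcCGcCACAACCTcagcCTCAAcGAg
Foxe1, chr4:46344485-46344526: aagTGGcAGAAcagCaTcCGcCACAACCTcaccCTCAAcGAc
Foxf1 and Foxf2 match at 41 of these 42 bases.

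Near-identical coding sequence could let reads of one gene be counted for another. The reads were 75 bases long, and over the 45 pairs of transcripts the longest identical stretch ran from 13 to 53 bases, with no pair reaching the read length. The longest belonged to Foxc1 and Foxc2, whose transcripts were still alike over a window as long as a read, printed here with identical bases in capitals.
Foxc1, chr13:31807635-31807709: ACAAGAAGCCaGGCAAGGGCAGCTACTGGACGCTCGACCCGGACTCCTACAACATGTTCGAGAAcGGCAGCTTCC
Foxc2, chr8:121117021-121117095: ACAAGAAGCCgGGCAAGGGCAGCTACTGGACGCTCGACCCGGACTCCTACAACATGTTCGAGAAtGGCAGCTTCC
A read from this window of Foxc1 differs from Foxc2 at 2 bases, so counts of the Foxc pair rest on few distinguishing bases there.

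The table gives 1 value per genotype, the mean of the log2 RPKM (reads scaled to exon length and library depth) of its 2 embryos, and no value per embryo. No p-value could therefore be computed, and every difference below is MD43 minus WT on the log2 RPKM scale. The product of the 2 embryos' read counts was recovered from each value, and its square root, the geometric-mean reads, is given as the depth behind a gene. Implied depths were 22328791 reads for MD43 and 16055882 reads for WT. Because both counts are whole numbers, the factors of a product also list which pairs of counts the 2 embryos could have had. Pairs that differed by at most 4-fold are given, and which embryo had which count cannot be told. From genes with a single pair within 8-fold, the spread between embryos of a genotype was estimated, and the standard error (SE) of a log2 difference that follows from it is the error given below: 0.279 for genes with 150 to 550 reads and 0.426 for genes with 30 to 150 reads in both genotypes, up to 0.535 for genes with fewer. The SD of the observed differences over the genes of these depths was 0.253 (n = 2542) and 0.40 (n = 2239), no larger than these SEs. The SE is an average over genes, not the error measured for the named gene. Pairs more than 4-fold apart were left out of its fit, which can make it too small at low depth. Where a gene had more than 550 reads in a genotype, the spread of genes with 150 to 550 reads was used. Under 10 reads, that of genes with 10 to 30 reads was used. Smchd1 itself, whose missense allele leaves its transcript in place, was at 3.30 in MD43 and 3.31 in WT, which does not check the labels.

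With a minimum of 10 geometric-mean reads in a genotype, 9 of the 10 genes could be compared. Either genotype alone could meet this minimum, so a gene could pass through the genotype where it was higher. Foxe1 was more than 2-fold higher in MD43, Foxd1 and Foxl2 were more than 2-fold lower, and the other 6 differed by less than 2-fold. Over all 15377 genes with this depth, 1.64% were at least 2-fold higher and 2.47% at least 2-fold lower in MD43. At 50 reads or more the shares were 0.31% and 0.946% of 12580 genes, and the same 3 forkhead genes were past 2-fold among the 8 that reached this depth. The median difference of the 9 genes was -0.17, against 0.006 for all genes. The differences of Foxe1, Foxd1 and Foxl2 were the 3 that exceeded 2 SE. With 1 RPKM added to both values before the logarithm, which shrinks low genes, Foxd1 alone remained past 2-fold, at -1.05. Foxl2 was then at -0.59 and Foxe1 at 0.88. Over all 15377 genes, 0.059% were then at least 2-fold higher and 0.20% at least 2-fold lower.

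**Figure D1:**
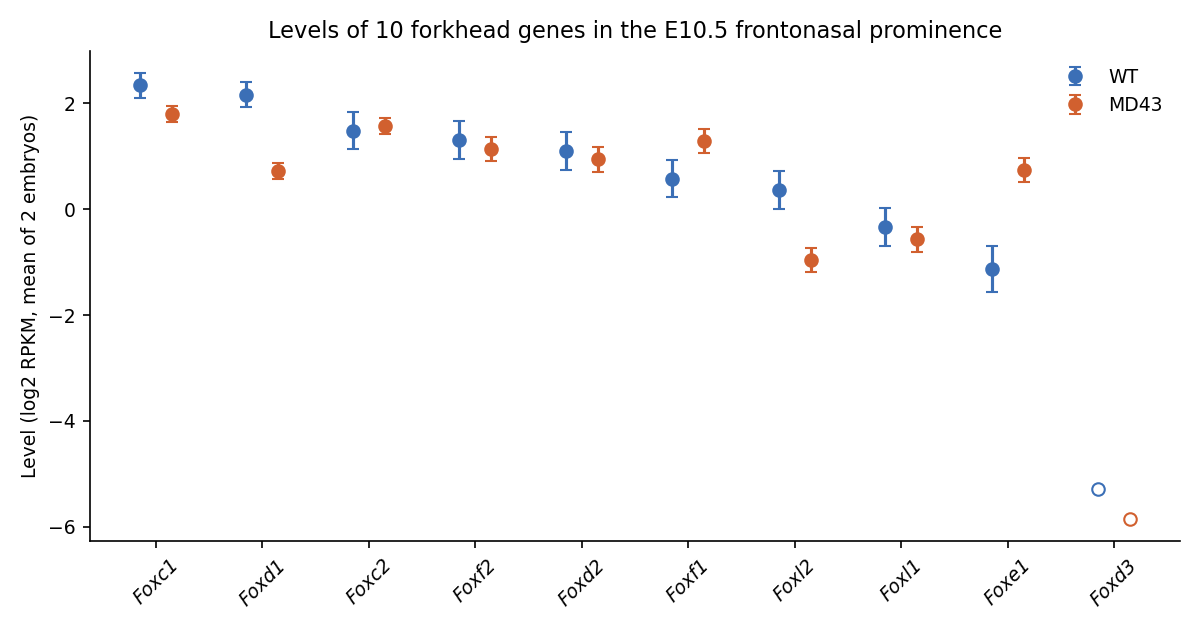
Level of each gene in WT and MD43 in log2 RPKM, genes ordered by their WT level. Points are means of 2 embryos, bars are 1 SE estimated from the embryo spread of genes of like depth, and open points mark Foxd3, which had almost no reads. Foxc1 led in both genotypes, at 2.34 in WT and 1.80 in MD43, though in WT its gap to Foxd1 was within the spread. Foxd1 stood above Foxc2 in WT, and in MD43 it lay within the spread of Foxe1. Foxe1 had the lowest WT level after Foxd3.

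Levels are per length of exon and can be ordered between genes. In WT the order ran from Foxc1 at 2.34 through Foxd1 at 2.16, Foxc2 at 1.49, Foxf2 at 1.30, Foxd2 at 1.10, Foxf1 at 0.58, Foxl2 at 0.36, Foxl1 at -0.34 and Foxe1 at -1.14 to Foxd3 at -5.30 log2 RPKM. Foxc1 and Foxd1 did not differ beyond their spread, nor did Foxc2 from Foxf2, Foxf2 from Foxd2, or Foxf1 from Foxl2. In MD43, Foxc1 at 1.80 was followed by Foxc2 at 1.57, Foxf1 at 1.29, Foxf2 at 1.13, Foxd2 at 0.94, Foxe1 at 0.74, Foxd1 at 0.72, Foxl1 at -0.57, Foxl2 at -0.96 and Foxd3 at -5.85. There, each gene from Foxf1 down to Foxe1 lay within the spread of the next one. Of the 9 steps in each order, 5 exceeded the spread in WT and 5 in MD43.

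Foxd1, known from the temporal retina, the forebrain floor and facial and kidney stroma, was the second most abundant of the 10 genes in WT. It lies at chr13:98354242-98359305 and its level was 0.72 in MD43 against 2.16 in WT, on 186 and 364 geometric-mean reads. This is 2.72-fold lower in MD43, a log2 difference of -1.44 ± 0.279 (SE), or 5.17 SE. In MD43 the embryos could have held from 112 and 310 to 160 and 217 reads, over 5 permitted pairs, and in WT from 210 and 632 to 336 and 395 reads, over 6 pairs. Once each pair is scaled to the library depths, with either count in the deeper library, 101 of the 120 combinations of a MD43 and a WT pair put both MD43 embryos below both WT embryos. The others overlap.

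Foxd2, a paralog of Foxd1, lies on the minus strand at chr4:114906282-114908873. It was at 0.94 in MD43 and 1.10 in WT, a difference of -0.15 ± 0.426. The MD43 product allowed a single pair, 79 and 157 reads, and WT allowed 52 and 152 or 76 and 104 reads. The genotypes overlapped in all 8 combinations. The difference of Foxd1 exceeded that of Foxd2 by -1.29, with a spread of 0.509 for this contrast.

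Foxd3, the premigratory crest gene at chr4:99656299-99658622, had almost no reads. No read was counted in either MD43 embryo, and 1 read was counted in 1 of the WT embryos. No fold is given, since both genotypes lie under a floor of 3 reads per library. Other crest genes were well detected, among them Twist1 at 4.72 log2 RPKM in MD43 and 5.11 in WT, whereas Sox10, which marks crest on its way to glia and melanocytes, had 6.2 and 10.8 geometric-mean reads.

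**Figure D2:**
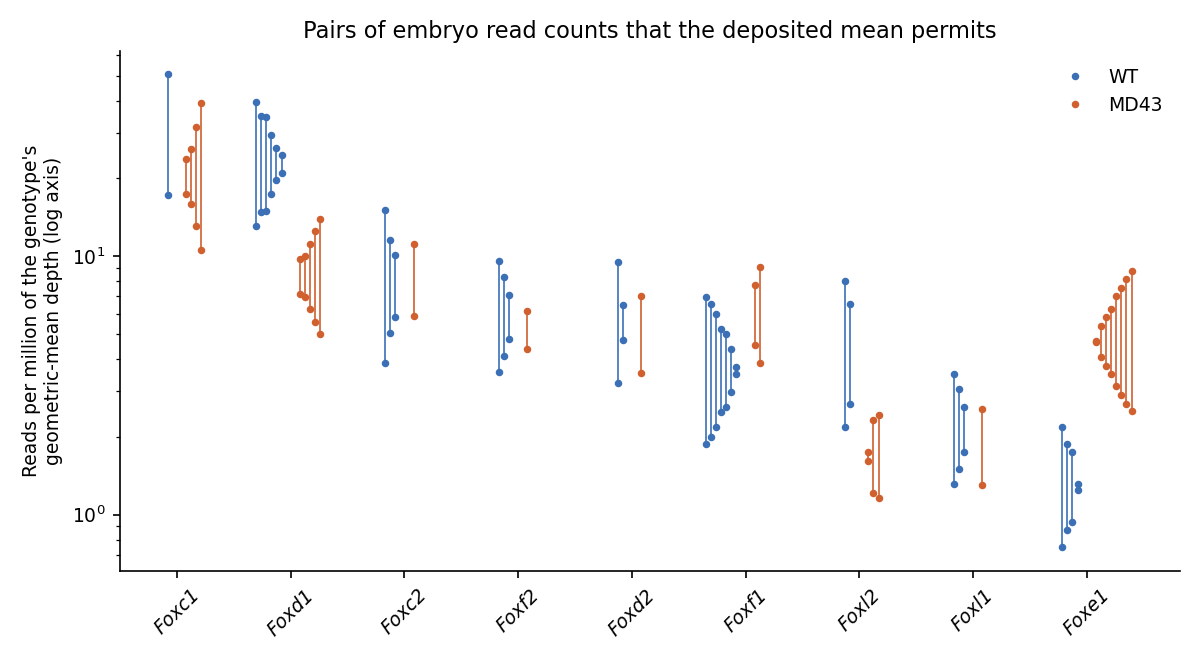
Pairs of embryo read counts that each deposited mean permits, in reads scaled to the geometric-mean depth of the genotype (RPM), on a log axis. Each line joins the 2 counts of 1 permitted pair in WT or MD43, before scaling to the depth of each library. The permitted MD43 counts of Foxe1 all lie above the WT counts, those of Foxd1 and Foxl2 lie mostly below the WT counts, and Foxc1 in WT has the single pair of 278 and 811 reads.

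Foxc1 and Foxc2 are a pair of paralogs that act together in the mesenchyme around the eye and in the vessels. Foxc1, at chr13:31806633-31812476, had a level of 1.80 in MD43 against 2.34 in WT, on 454 and 475 reads, which is a difference of -0.54 ± 0.279. Its WT product had 1 permitted pair, 278 and 811 reads, and the next pair differed by 11.7-fold. After scaling to depth the WT embryos then differed from each other by 1.05 on the log2 scale, or by 2.04 if the deeper library held the smaller count. Either gap exceeds the difference between the genotypes, and none of 16 combinations separated WT from MD43. The 4 permitted MD43 pairs ran from 236 and 873 to 388 and 531 reads.

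Foxc2, at chr8:121116171-121118895, was at 1.57 in MD43 and 1.49 in WT, a difference of 0.08 ± 0.387. MD43 had 131 and 249 reads, the single permitted pair, and WT had 62 and 243, 81 and 186 or 93 and 162 reads. All 12 combinations overlapped. Foxc1 minus Foxc2 gave a difference of differences of -0.62 with a spread of 0.477.

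Foxf1, Foxc2 and Foxl1 lie in a row on chromosome 8, and Foxq1, Foxf2 and Foxc1 form a second row on chromosome 13. Foxf1, at chr8:121084386-121088144, is needed in the mesenchyme of lung and gut and responds to Hedgehog signals. Its level was 1.29 in MD43 and 0.58 in WT (132 and 58 reads), a difference of 0.71 ± 0.426. The MD43 counts were 86 and 202 or 101 and 172, and the 7 WT pairs ran from 30 and 112 to 56 and 60. Of 56 combinations, 13 separated the genotypes.

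Foxf2, at chr13:31625816-31631403, is required in the mesenchyme of the palate. It was at 1.13 in MD43 and 1.30 in WT, a difference of -0.17 ± 0.426, with 98 and 137 reads in MD43 and 57 and 154, 66 and 133 or 77 and 114 reads in WT. The genotypes were apart in 1 of 12 combinations. The contrast of Foxf1 with Foxf2 was 0.88 with a spread of 0.602. In WT Foxf2 lay above Foxf1 by 0.72 log2 RPKM, and in MD43 Foxf1 lay above Foxf2 by 0.15, which is less than their spread.

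Foxl1, at chr8:121127940-121130644, known from mesenchyme under the gut epithelium, was at -0.57 in MD43 and -0.34 in WT, a difference of -0.23 ± 0.426. The single MD43 pair was 29 and 57 reads, and WT allowed 21 and 56, 24 and 49 or 28 and 42 reads. They overlapped in 11 of 12 combinations. Within the row on chromosome 8 the 3 neighbours thus had differences of 0.71, 0.08 and -0.23, none of them beyond 2 SE.

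Foxl2, at chr9:98955288-98958543, is known from the eyelid, where its loss in people narrows the eye opening, and from the pituitary and ovary. Its level was -0.96 in MD43 against 0.36 in WT, on 37.5 and 67.2 reads. That is 2.49-fold lower in MD43, a difference of -1.32 ± 0.426, or 3.10 SE. The MD43 embryos had 26 and 54, 27 and 52 or 36 and 39 reads, and the WT embryos had 35 and 129 or 43 and 105 reads. The genotypes were apart in 14 of 24 combinations, and the WT embryos differed from each other by at least 2.44-fold in reads. Foxl1 minus Foxl2 gave a difference of differences of 1.09 with a spread of 0.602.

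Beside Foxl2 lies Foxl2os, a transcript without a coding sequence that starts at almost the same place and runs the other way. It was lower in MD43 by about as much, at -1.98 against -0.61, a difference of -1.37 ± 0.476. The MD43 counts were 10 and 35 or 14 and 25, the WT counts 19 and 64 or 32 and 38, and 10 of 16 combinations separated the genotypes. The start of Foxl2os is printed because its first 12 bases, in capitals, are also the first bases of Foxl2 on the opposite strand.
Foxl2os, minus strand, chr9:98955240-98955299: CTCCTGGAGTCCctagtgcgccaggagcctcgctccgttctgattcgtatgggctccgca
If Foxl2 reads were spread evenly over its exon of 3256 bases, the shared 12 bases, by their share of it, would account for 0.248 reads in WT. Whether the counting used the strand is not stated.

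Foxe1, at chr4:46343609-46346412, is known from the epithelium of the oral roof, the pharynx and the thyroid bud, and its loss causes cleft palate and lack of a thyroid. Its level was 0.74 in MD43 against -1.14 in WT, on 104 and 20.5 geometric-mean reads. That is 3.67-fold higher in MD43, a difference of 1.87 ± 0.491, or 3.82 SE. Within the 4-fold limit, the WT embryos could have had 12 and 35, 14 and 30, 15 and 28 or 20 and 21 reads. The 8 MD43 pairs ran from 56 and 195 to 104 and 105 reads. Of 128 combinations of these pairs, 121 put both MD43 embryos above both WT embryos. The next pairs differed by 4.04-fold in MD43 and 4.2-fold in WT, just past the limit, so this count depends on it.

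Gm12446, an antisense transcript, starts inside the Foxe1 exon, 1906 bases from the Foxe1 start, and shares 102 exon bases with it. Its level was 0.17 in MD43 against -1.34 in WT, a difference of 1.51 ± 0.491 on 30.7 and 7.75 reads. If Foxe1 reads were spread evenly, the shared bases, by their share of its exon, would account for 3.8 reads in MD43 and 0.745 in WT. Reads that lie only partly on the shared bases would add to this. Without a statement on strand, reads of the 2 genes in that overlap cannot be told apart. The genes nearest to Foxe1 in the plane of the 2 genotype values were Gm38150, at a distance of 0.086 log2 units, Hist1h1b at 0.233 and Ermap at 0.389.

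**Figure D3:**
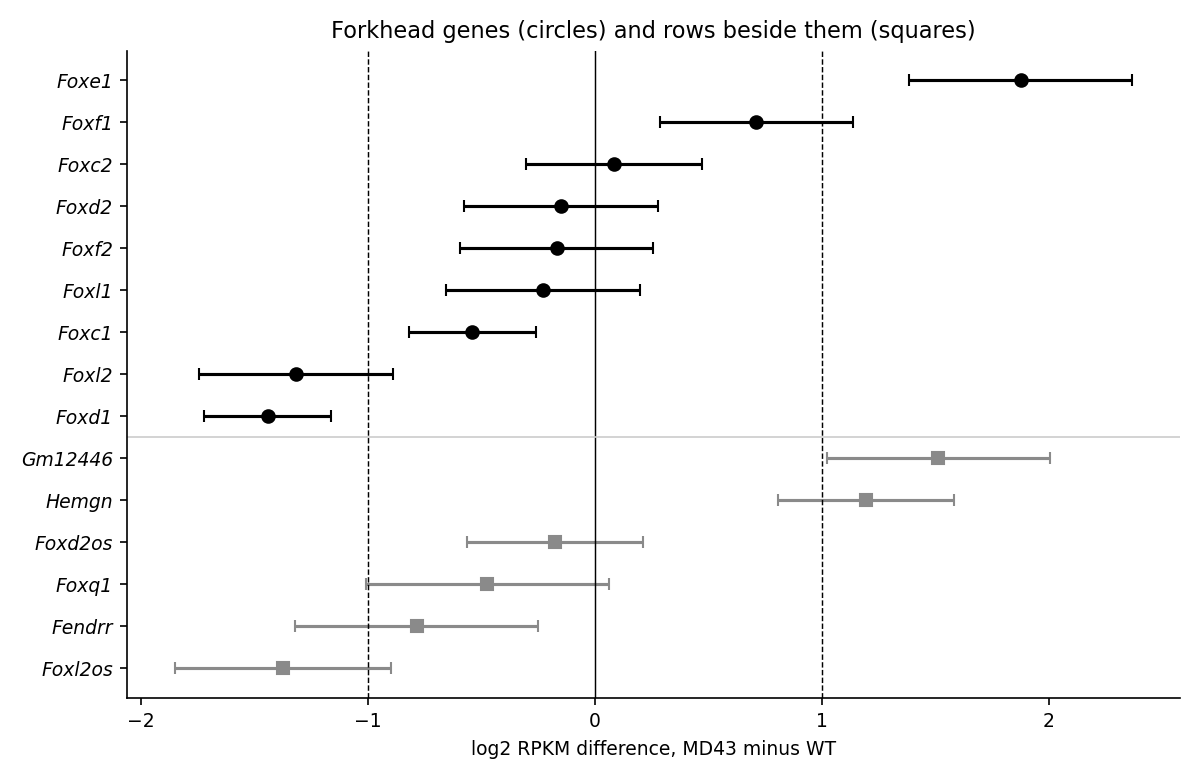
Difference in log2 RPKM, MD43 minus WT, of the 9 forkhead genes with at least 10 reads (circles) and of 6 genes within 100 kb of one of them (squares). Bars are 1 SE from the embryo spread, and dashed lines mark 2-fold. Foxe1 and Gm12446 lie to the right of the upper line, and Foxd1, Foxl2 and Foxl2os to the left of the lower one.

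In all, 40 other genes lay within 100 kb of one of the 10, and 21 of them had at least 10 reads. Foxl2os, Gm12446 and Hemgn were the 3 past 2-fold. Gm12446, with 30.7 reads in MD43 and 7.75 in WT, met this minimum only in MD43, where it was higher. Of all genes with this depth, 1.64% lay past the same line upward and 2.47% downward. Hemgn, an erythroid gene 47576 bases from Foxe1, was higher in MD43 by 1.19 ± 0.387. Fendrr, which starts 1276 bases from the start of Foxf1 and runs the other way, was at -2.28 in MD43 and -1.49 in WT, a difference of -0.79 ± 0.535 where Foxf1 was at 0.71. Foxd2os, across a start-to-start distance of 384 bases from Foxd2, had -0.18 ± 0.387 beside -0.15 for Foxd2. Foxq1 had 17.3 reads in each genotype and a difference of -0.48 ± 0.535. Foxe3, a lens gene on the far side of Foxd2, had no read in MD43 and 5.29 geometric-mean reads in WT.

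The remaining neighbours with at least 10 reads had differences between -0.48 and 0.23. Around Foxd1, Btf3 was at -0.03, Gm9828 at 0.09, Ankra2 at -0.16 and Utp15 at 0.20, beside -1.44 for Foxd1. Around Foxe1, Trmo was at -0.13. Around Foxl2, Faim was at -0.04 and Pik3cb at 0.02. Foxd1 and Foxl2 thus had neighbours near 0 within 100 kb, and of the neighbours of Foxe1 with at least 10 reads only Trmo was. Gm12446 at 1.51, which met the minimum of reads in MD43 only, and Hemgn at 1.19 lay past 2-fold in the direction of Foxe1. Foxl2os at -1.37 lay past 2-fold in the direction of Foxl2.

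Of the other forkhead genes, 31 had a row and 20 had at least 10 reads. Foxa2, known from floor plate and endoderm, was past 2-fold in the higher direction, with 19.8 geometric-mean reads in MD43 and 4.24 in WT, a difference of 1.74. The 2 in the lower direction were Foxb1, known from diencephalon, with 1.34 against 58.8 reads, and Foxa1 with 5.29 against 28.3. Foxa2 met the minimum of reads in MD43 only, and Foxb1 and Foxa1 in WT only. The median of the 20 was -0.05. The most abundant, Foxm1 of dividing cells, was at 5.07 and 4.93, above each of the 10 facial genes in both genotypes.

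The Hedgehog pathway is known to switch on Foxf1, Foxf2, Foxd1 and Foxd2 in facial mesenchyme. Of its 15 genes with at least 10 reads, none was at least 2-fold higher and 1 was 2-fold lower, Scube2, which helps release the ligand, at -1.05 ± 0.476. The median was -0.003. Gas1, a coreceptor and the most abundant of them, was at 5.65 in MD43 and 5.33 in WT. The genes that report pathway activity, singled out here after their values had been seen, were at -0.66 ± 0.279 for Gli1, -0.53 ± 0.279 for Ptch1 and -0.73 ± 0.426 for Hhip, while the ligand Shh was at -0.34 ± 0.279.

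Of 22 cranial crest and glia genes, 3 were at least 2-fold lower and none higher, with a median of -0.18. They were Ednrb, Sox10 and Mitf. Ednrb, the endothelin receptor of crest, was at 0.17 against 1.44 log2 RPKM. Sox10, which met the minimum of reads in WT only, was at -3.45 against -2.18. Mitf of melanocytes and retinal pigment epithelium was at -1.03 against -0.03. Fabp7, the most abundant by the mean of both genotypes, was at 4.80 and 5.69. None of 13 periocular mesenchyme genes, which include Foxc1 and Foxc2, was past 2-fold in either direction, and their median was 0.02. Sox9 was the most abundant of these, at 4.31 and 4.49.

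Facial mesenchyme markers were present at high levels in both genotypes, led on the mean of both by Msx1 at 5.11 in MD43 and 5.28 in WT. Of 16, 2 were at least 2-fold lower, Col1a1 at -1.25 and Lum at -1.18, and none was higher. Their median was -0.26 and their summed level, in reads scaled to library depth (RPM), was 797 in MD43 and 896 in WT, a log2 difference of -0.17 beside -1.44 for Foxd1 and -1.32 for Foxl2. In tissue RNA, fewer cells of a type and less RNA per cell cannot be told apart.

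Most markers of brain and eye were lower in MD43, the direction of Foxd1 and Foxl2. Of 17 ventral diencephalon and hypothalamus markers, 10 were at least 2-fold lower in MD43 and none higher, with a median of -1.12 and a summed level of 191 RPM in MD43 against 297 in WT. Barhl2 had 4.24 and 183 reads and Nkx2-2 had 12 and 61.2, while the most abundant, Fezf1, was at 3.86 and 4.18 log2 RPKM. Of 13 optic vesicle and retina markers, 5 were at least 2-fold lower and none higher, with a median of -0.30, although the summed level was higher in MD43, at 571 against 497 RPM, led by Lhx2 at log2 RPKM of 5.70 against 5.21. Rax, a gene of the eye field and hypothalamus, was at -2.41 against -0.24. The lists share genes, so their counts are not independent. Rax is counted among the lower genes of both the optic and the diencephalon list. Mitf is counted in both the optic and the crest list, and Foxb1 among both the diencephalon markers and the other forkhead genes. The part of neural tissue in the lower Foxd1 and Foxl2 values was not tested.

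Most markers of epithelium and blood were higher in MD43, the direction of Foxe1. Of 15 surface ectoderm markers, 13 were higher in MD43, but Krt5 alone was past 2-fold, at 1.17, and none was 2-fold lower. Their median was 0.59 and their summed level was 555 RPM in MD43 and 375 in WT, a log2 difference of 0.57 beside 1.87 for Foxe1. Krt18, the most abundant, was at 5.60 and 5.11. Of 8 pharyngeal and oral epithelium genes, 1 was at least 2-fold higher and 1 at least 2-fold lower, with a median of 0.10. Pitx1 of the oral ectoderm was at 3.42 in MD43 and 2.38 in WT. Pax8 of the thyroid and brain had 3.29 and 17.4 reads, and so met the minimum in WT only. The thyroid gene Tg had 2.7 and 2.1 reads and Hhex none, while Nkx2-1, which also marks hypothalamus, was at 3.35 and 3.80.

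All 6 red blood cell markers were higher in MD43, with 1 past 2-fold, Hbb-bh1 at 11.47 against 10.43, a median of 0.82 and summed levels of 3848 and 2039 RPM. Hemgn beside Foxe1 belongs with these genes by its function. Endothelium markers had a median of -0.11, with none of 14 past 2-fold, and Egfl7, the most abundant, was at 2.87 and 3.15. The part of epithelial and blood RNA in the higher Foxe1 value was not tested.

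Foxl2 is best known with partners of the ovary, and these were looked at as a group. Of 6 with at least 10 reads, Fst, the activin antagonist follistatin, had 51.4 reads in MD43 against 84.2 in WT and a difference of -1.19 ± 0.426, the 1 past 2-fold in the lower direction. Amh, with 13.3 reads in MD43 and 1.34 in WT, was the 1 in the higher direction, and it met the minimum of reads in MD43 only. Rspo1, the most abundant, was at 4.83 and 4.58, and the median was 0.27. Cyp19a1, aromatase, had no read in either genotype.

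**Figure D4:**
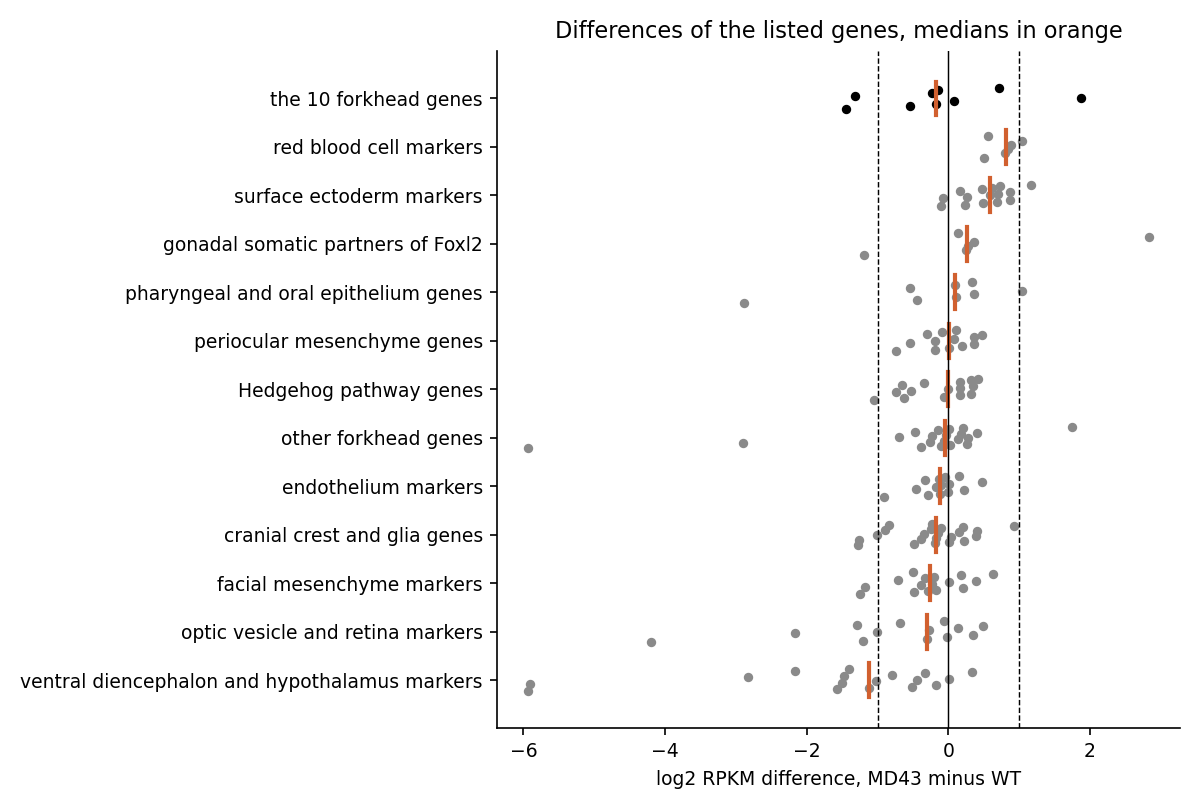
Difference in log2 RPKM, MD43 minus WT, of every gene with at least 10 reads in each group, with the median as an orange bar and 2-fold as dashed lines. The forkhead genes spread to both sides of 0, with a median of -0.17, while ventral diencephalon markers have a median of -1.12 and red blood cell markers of 0.82. Points beyond -3 rest on genes with at most 4.24 reads in MD43, so their size is uncertain.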

How the data were processed

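RNA of the FNP of 4 mouse embryos (2 WT and 2 MD43, grouped by the labels) was sequenced as stranded mRNA libraries from 100 ng of total RNA. The authors trimmed reads with Trim Galore 0.4.4, mapped them with HISAT2 2.0.5 to GRCm38.p6 and quantified them in SeqMonk. The deposited log2 RPKM values correct for depth and exon length, as the authors computed them, in 1 mean column per genotype and without sex chromosomes. The table also holds the authors' FDR, log fold change and average columns, which were not used.

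Rows were joined to GENCODE M21 on symbol and coordinates (33101 of 33708). The value of a genotype was taken as the mean of 2 log2 RPKM values, in which 0 reads stood as 0.9. On this basis, 99.7% of products under 300000 were whole, or 0.9 times whole, to within 0.1. Pairs of counts were the factors of a product within 4-fold. The depth ratio of the 2 libraries (1.58 in MD43, 1.41 in WT) and their spread were fitted by maximum likelihood as a folded normal on products with 1 pair within 8-fold. Products whose pair differed by more than 4-fold were left out of the fit. In WT this kept 370 of 393 products at 10 to 30 reads and 490 of 504 at 30 to 150 reads. The cut can make the SE too small at low depth. The SE is averaged over genes. Combinations are not equally likely. Implied library depths were 17768061 and 28060175 reads in MD43 and 13506665 and 19086232 in WT. Counting SE was 0.067 to 0.246 for the 9 genes compared, a lower limit.

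A minimum of 10 geometric-mean reads in WT or MD43 and a 2-fold line were applied. The genes and lists were chosen with earlier results of these data known, the pair limits after seeing the data. Named list genes are up to 3 past 2-fold with the largest difference and the most abundant, all genes within 100 kb are named or summarised, and Tg, Hhex, Cyp19a1, Twist1 and the Hedgehog readouts were added after their values were seen. 1 listed gene is not reported here by name. Alternatives were pseudocounts of 0.1 and 1 RPKM, centring, a correction for GC content and exon length, filters of 50 reads and none, and a 1.5-fold line. Python 3.11.15, pandas 2.3.3, numpy 2.4.6 and scipy 1.17.1 were used.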

Additional observations from a re-analysis of the deposited data

How the results depend on the processing

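No forkhead difference changed sign, and 33 of 36 alternative values of the 9 forkhead differences, over pseudocounts, centring and GC and length correction, moved by less than 1 SE. With 1 RPKM added, the differences were -1.05 for Foxd1, -0.59 for Foxl2 and 0.88 for Foxe1. Past 2-fold, 0 members were then higher and 1 was lower, beside 0.059% and 0.20% of 15377 genes. The ventral diencephalon median was then -0.53. The Hedgehog median went from -0.003 to 0.079 at 50 reads and 0.10 without a filter, and the pharyngeal median from 0.099 to -0.024 without a filter, all within the spread. At a 1.5-fold line 2 members were higher and 2 lower, beside 4.24% and 6.43% of all genes with at least 10 reads. Genes past the line, either way, also depended on the settings. Only counts that changed by more than 1.5-fold, or to or from 0, are given here, and smaller changes are left out. With 0.1 RPKM added they numbered 0 Hedgehog, 1 crest and 3 optic. With 1 RPKM added they numbered 0 Hedgehog, 0 crest, 0 facial, 0 optic, 4 diencephalon, 0 ectoderm, 0 pharyngeal, 0 gonadal and 1 other forkhead gene. At 50 reads they numbered 0 Hedgehog, 3 optic, 1 pharyngeal, 1 gonadal and 1 other forkhead gene, without a filter 2 Hedgehog and 6 other forkhead genes, and after GC and length correction 1 pharyngeal gene. At 1.5-fold they numbered 4 Hedgehog, 6 crest, 1 periocular, 4 facial, 8 ectoderm, 1 endothelium and 4 red blood cell genes. No paired analysis was possible because the columns hold 1 mean per genotype and no value per embryo, and leaving out each embryo could not be run for the same reason. A pseudocount of 1 RPKM is close to the level of Foxe1, Foxl1 and Foxl2 and shrinks low genes by construction. Error between embryos is an estimate over genes, and 2 embryos per genotype limit it.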
